A study of Mus musculus with 64 samples.

Results

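The core circadian clock loop was followed in the early distal convoluted tubule (DCT), the nephron segment just after the thick ascending limb, in mice fed furosemide, a loop diuretic, or a control diet. Its 10 genes were chosen by name from textbook knowledge of the loop, out of 54331 genes in the deposited table: the activators Arntl, Clock and Npas2, the repressors Per1, Per2, Per3, Cry1 and Cry2, and the nuclear receptors Nr1d1 and Nr1d2. Earlier results of these data were known when the loop was chosen, so counts of members set against all genes describe and are no independent support. The 64 libraries form 16 groups of 4, 1 for each combination of sex, diet and time (12, 24, 48 or 96 h), and each time has its own control mice, fed control diet only. All groups carry 1 reporter transgene, C57BL/6-Tg (Pvalb-tdTomato)15Gfng/J, which marks parvalbumin cells, among them early DCT cells, with a red protein. Neither the ages of the mice nor the hour at which a diet began is stated in the sources at hand. Nothing says that each replicate is a separate animal, so a p-value here reflects library-to-library spread, which may be technical. Every tubule was dissected between 9 and 11 am, so each library shows the loop in 1 morning window, and neither phase nor amplitude of a rhythm was measured.

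The loop works as a delayed negative feedback. ARNTL (also called BMAL1) pairs with CLOCK or NPAS2 and drives genes that carry E-box elements, including the Per, Cry and Nr1d genes, and the PER and CRY proteins then block that pair. REV-ERBα and REV-ERBβ, the products of Nr1d1 and Nr1d2, repress Arntl through elements that they share with the ROR activators, so Arntl and Nr1d transcripts peak at opposite times of day in most mouse tissues. In the kidney the loop is known for its part in the daily rhythm of sodium excretion.

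Promoter windows are shown for the 4 genes on which the diet comparison below turns, Nr1d2 and Nr1d1 on the lower side and Arntl and Cry1 on the higher side. The windows come from RefSeq (GRCm38.p6), run 5′ to 3′ on the strand of the gene, and hold 250 bases before and 50 after an annotated start, with motif matches in capitals.
Nr1d2, chr14:18239057-18239356, minus strand: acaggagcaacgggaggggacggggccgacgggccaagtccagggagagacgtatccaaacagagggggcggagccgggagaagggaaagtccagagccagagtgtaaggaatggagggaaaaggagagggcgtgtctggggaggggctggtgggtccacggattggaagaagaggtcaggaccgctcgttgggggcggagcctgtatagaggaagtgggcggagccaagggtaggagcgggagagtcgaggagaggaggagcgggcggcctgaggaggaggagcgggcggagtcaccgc
Nr1d1, chr11:98775328-98775627, minus strand: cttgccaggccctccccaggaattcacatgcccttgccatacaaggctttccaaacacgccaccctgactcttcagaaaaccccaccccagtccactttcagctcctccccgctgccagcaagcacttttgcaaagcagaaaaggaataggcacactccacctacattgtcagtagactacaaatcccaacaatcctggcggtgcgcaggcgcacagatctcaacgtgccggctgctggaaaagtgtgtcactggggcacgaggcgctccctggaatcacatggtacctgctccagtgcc
Arntl, chr7:113207261-113207560, plus strand: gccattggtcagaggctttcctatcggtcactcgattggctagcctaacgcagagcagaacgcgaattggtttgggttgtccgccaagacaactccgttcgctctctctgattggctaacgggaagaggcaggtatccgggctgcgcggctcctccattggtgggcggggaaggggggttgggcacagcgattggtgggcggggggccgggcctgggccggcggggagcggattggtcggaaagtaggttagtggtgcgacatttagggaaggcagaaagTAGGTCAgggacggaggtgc
Cry1, chr10:85185005-85185304, minus strand: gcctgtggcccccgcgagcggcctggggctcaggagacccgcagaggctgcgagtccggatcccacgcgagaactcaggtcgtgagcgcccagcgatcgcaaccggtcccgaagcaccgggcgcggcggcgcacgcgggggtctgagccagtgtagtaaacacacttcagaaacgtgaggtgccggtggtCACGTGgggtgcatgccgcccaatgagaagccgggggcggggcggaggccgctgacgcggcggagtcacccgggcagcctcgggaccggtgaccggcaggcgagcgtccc
The Arntl window holds 1 core of the element bound by ROR and REV-ERB proteins (RORE), TAGGTCA at position 31 after the start, and the Cry1 window holds 1 E-box, CACGTG at position −60. A second annotated Arntl start, 46 bases upstream, has a window (chr7:113207215-113207514) that ends before that core and holds no match. The Nr1d1 and Nr1d2 windows hold no match to the 4 motifs searched on both strands, which says only that these letters are not in these 300 bases. Those motifs were the E-box CACGTG, the RORE core TAGGTCA or TGGGTCA, the D-box TTATGTAA or TTACGTAA, and the cyclic AMP response element TGACGTCA. They occur in 7.15%, 6.45%, 1.06% and 1.79% of the 32851 mouse promoter windows in the table. In all, 9 of the 10 genes had a window, 13 windows together, and Per2 had none. Beside Cry1, an E-box was found in 1 of 2 Per1 windows, at position −166, and Per3 held 2 D-box matches at positions −205 and −158. No member window held the cyclic AMP response element.

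Library totals ranged from 12.71 to 41.07 M counts (median 20.45 M). The 16 libraries of 96 h were deeper (median 32.4 M) than the 48 of 12 to 48 h (19.15 M) and held less of Lars2, a mitochondrial leucyl-tRNA synthetase gene that took a large share of the counts. The Lars2 medians were 10040 and 35270 CPM (counts scaled to a common library total) in 96 h and earlier controls, and 19490 and 36700 with furosemide. In 3 libraries the correlation with the rest of their group was low, between 0.448 and 0.722 against at least 0.812 elsewhere: female control 24 h replicate 3, female control 48 h replicate 4 and male furosemide 12 h replicate 4. The summed level of 8 DCT markers had a median of 11800 CPM in controls and 11500 with furosemide, that of 5 thick ascending limb markers 5540 and 5270, that of 4 immune markers 190 and 198, and that of 5 endothelial markers 491 and 475, and no marker was at 0 in every library. The sum of 5 connecting tubule markers had medians of 2330 CPM in controls and 2380 with furosemide. Single libraries stood far from these medians. The endothelial sum reached 2740 CPM in controls and 2070 with furosemide, and the immune sum 1190 and 475. The sum of 4 podocyte markers, with medians of 26.6 and 19.7 CPM, reached 1760 and 65.4. In bulk tubules fewer cells of a type and less RNA per cell cannot be told apart.

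All 10 clock transcripts were detected in all 64 libraries and passed the filter on low counts. CPM of single genes from here on were further divided by each library's TMM scaling factor, unlike the Lars2 values and marker sums. In the 3 libraries of low correlation that factor was 0.48, 0.73 and 0.713, in the order named above, which raises their CPM. Per kilobase of exon, and as the median of the 32 control libraries, Nr1d1 was highest at 4.6 CPM, followed by Nr1d2 at 2.98 and Arntl at 2.47. Per1, the period gene that also responds to steroid hormones, stood at 2.23, and Clock at 1.86 CPM per kilobase. The cryptochromes Cry1 and Cry2 had 1.62 and 1.51, Per3 1.22, Per2 0.976 and Npas2, which can stand in for CLOCK, 0.845. Each of the 9 pairs of neighbours in this order differed by less than the smaller of their standard deviations (SD). That SD is a spread between libraries and not an error of the medians, and the order between neighbours was not tested. Per3 varied least between control libraries, with a coefficient of variation of 23.2%, and Per2 most, with 157%, where 1 library, female control 48 h replicate 4, stood at 86.1 CPM before division by length. The fewest counts in any library were 5 for Cry1 and 10 for Npas2.

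**Figure D1:**
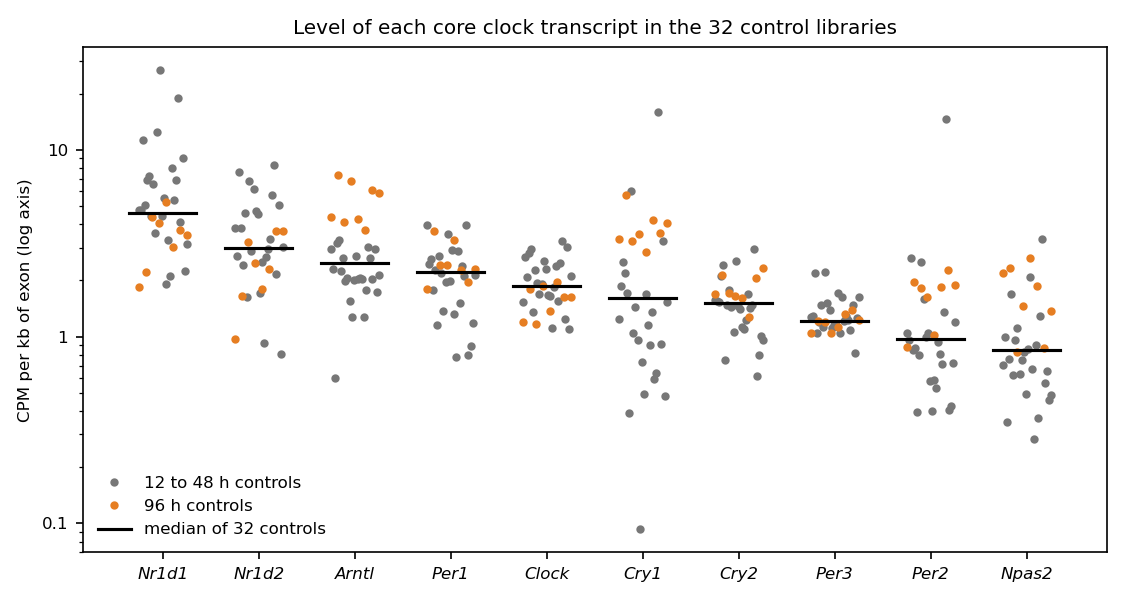
Level of each clock transcript in the 32 control libraries, in CPM per kilobase of exon on a log axis. Grey points are the 24 libraries of 12 to 48 h, orange points the 8 of 96 h, and black lines the medians of all 32, which run from 4.6 for Nr1d1 to 0.845 for Npas2, with overlapping ranges.

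Over the 4 times and both sexes, furosemide-fed tubules held less Nr1d2, which fell by 0.87 on the log2 scale, while Nr1d1 lay below and Arntl and Cry1 above their controls without passing the test. Nr1d2 was the 1 member of 10 with an adjusted p under 0.05, against 0.588% of all 41507 genes tested (0.147% lower). At an unadjusted p under 0.05 there were 6 of 10, against 9.72% of all genes. Over all 10 members the log2 differences had a median of 0.00, with 5 above and 5 below 0, and the median over all genes was −0.04. Tests were quasi-likelihood F tests in edgeR, and p-values were adjusted by Benjamini-Hochberg over all genes.

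**Figure D2:**
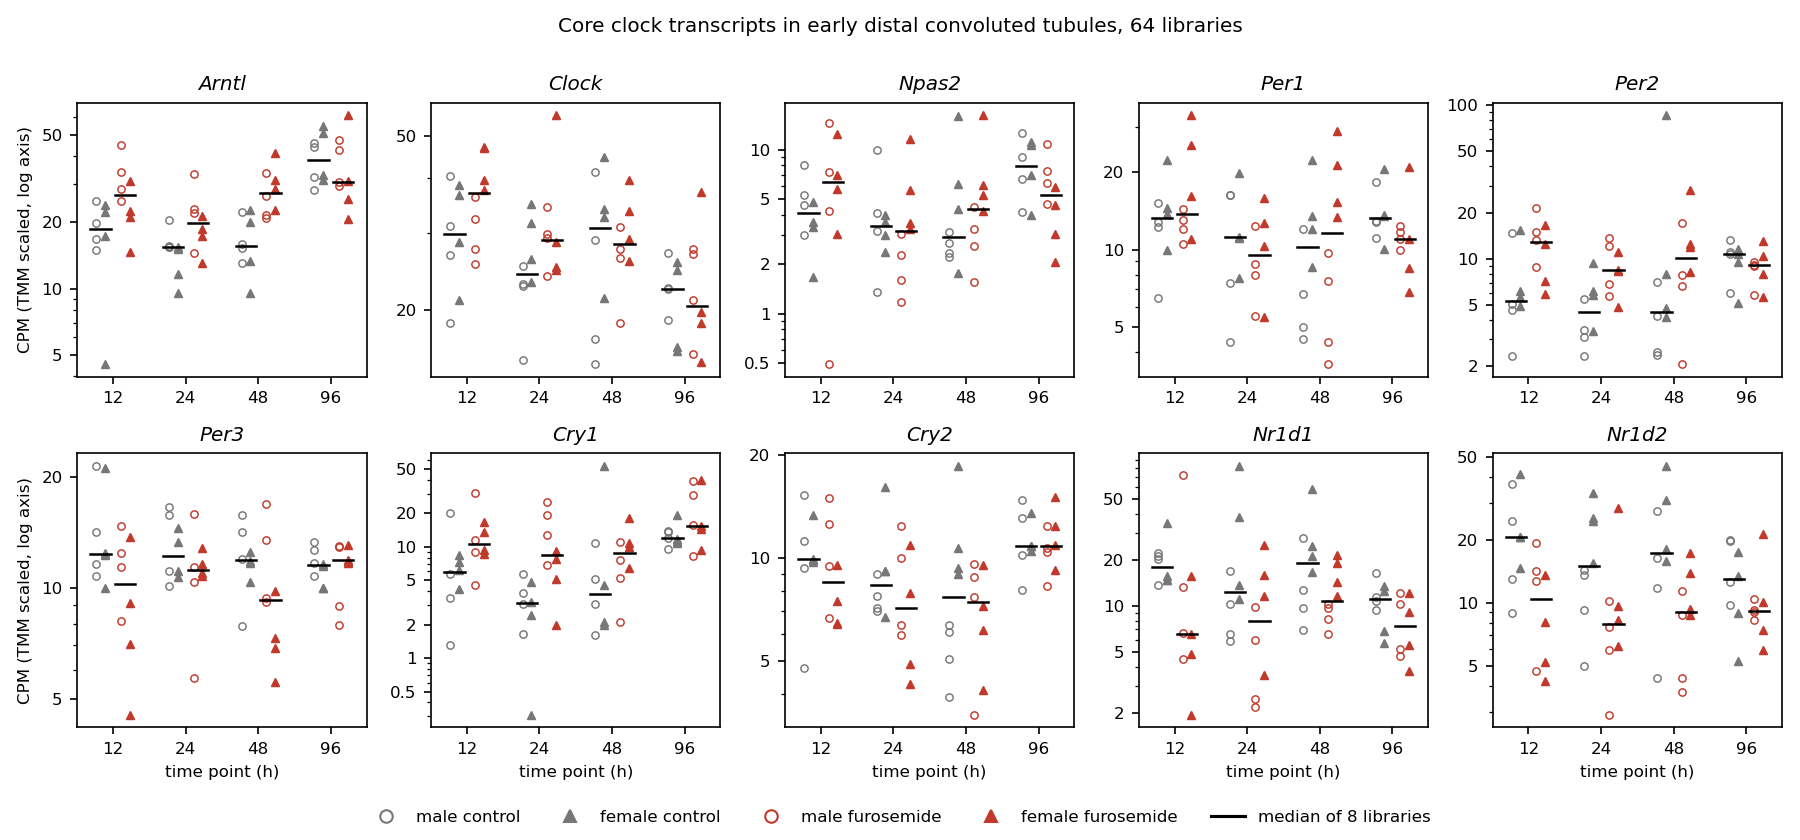
CPM (TMM scaled, log axis) of the 10 clock transcripts in all 64 libraries by time point in hours. Grey marks control and red furosemide, open circles males and filled triangles females, and black lines the median of the 8 libraries of a diet and time. Nr1d2 and Nr1d1 medians are lower with furosemide at all 4 times, and Arntl medians are higher at 12, 24 and 48 h.

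Nr1d2 (ENSMUSG00000021775, chromosome 14, 18204054 to 18239127, minus strand, GRCm38) encodes REV-ERBβ. In male controls it measured 13, 24.7, 8.88 and 37 CPM at 12 h, 9.24, 13.6, 4.98 and 14.4 at 24 h, 11.7, 27.5, 4.35 and 16.4 at 48 h, and 9.73, 12.5, 19.9 and 19.8 at 96 h. In furosemide-fed males the values were 4.7, 14.1, 12.7 and 19.2 CPM at 12 h, 10.2, 5.94, 7.61 and 2.91 at 24 h, 3.72, 8.71, 4.38 and 11.4 at 48 h, and 9, 10.4, 9.2 and 8.3 at 96 h. The males' groups overlapped at each time, with the furosemide mean the lower one each time. Female controls measured 20.6, 14.6, 41.1 and 20.7 CPM at 12 h, 15.5, 33.3, 25.5 and 24.7 at 24 h, 15.9, 18, 30.9 and 45.2 at 48 h, and 5.25, 8.96, 17.4 and 13.4 at 96 h. Furosemide-fed females measured 5.21, 4.21, 13.6 and 8.08 CPM at 12 h, 8.25, 9.68, 28.5 and 6.22 at 24 h, 13.9, 9.32, 8.74 and 17.3 at 48 h, and 21.3, 10.1, 5.95 and 7.38 at 96 h. At 12 h every library of furosemide-fed females lay below every library of control females. At 96 h the female groups had almost the same mean, 11.2 against 11.3 CPM. Over all times Nr1d2 averaged 18.7 ± 10.3 CPM in controls and 10 ± 5.51 with furosemide (SD, n = 32 each), and 29 of 32 furosemide libraries lay below the median of their own control group. The difference was −0.87 (log2, standard error (SE) 0.174, edgeR adjusted p = 0.00431), negative in 8 of 8 combinations of sex and time. It remained past the threshold in each of the 64 fits that left out 1 library and in each of the 7 other settings, with adjusted p from 1.24e-05 to 0.0141.

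Nr1d1 (ENSMUSG00000020889, chromosome 11, 98767932 to 98775333, minus strand) encodes REV-ERBα, a repressor of Arntl like REV-ERBβ. It had medians of 18, 12.3, 18.9 and 11.1 CPM in controls at 12, 24, 48 and 96 h, and 6.58, 7.94, 10.8 and 7.35 CPM with furosemide (n = 8 each). The lowest and highest controls were 13.6 and 34.9 CPM at 12 h, 5.87 and 82.5 at 24 h, 6.9 and 58.5 at 48 h, and 5.68 and 16.3 at 96 h. With furosemide they were 1.94 and 72.2 CPM at 12 h, 2.17 and 25.1 at 24 h, 6.53 and 21.4 at 48 h, and 3.73 and 12.1 at 96 h. The groups overlapped at every time, and the 3 libraries of low correlation hold the highest values, 82.5 and 58.5 CPM in the controls and 72.2 CPM with furosemide. Over all times 27 of 32 furosemide libraries lay below their control median. The difference of −0.75 (SE 0.211) did not pass, with an edgeR adjusted p of 0.0843. Without male furosemide 12 h replicate 4 it was −0.94 (adjusted p = 0.00451), and without female furosemide 12 h replicate 3 −0.83 (adjusted p = 0.0499). It passed with DESeq2 (−0.80, adjusted p = 0.00763) and voom (−0.87, adjusted p = 0.0295), and without the 3 libraries (−0.77, SE 0.179, adjusted p = 0.00369, where 5.81% of all genes were called), and its adjusted p ran from 0.00369 to 0.148 over all alternatives. Nr1d1 shares its 3′ end with Thra, the gene of thyroid hormone receptor α on the other strand, and reads of the pair cannot be told apart in libraries without strand. Thra itself, at a median of 71.2 CPM, differed by 0.04 (SE 0.0974, adjusted p = 1) in the same comparison.

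Arntl (ENSMUSG00000055116, chromosome 7, 113207465 to 113314126, plus strand) encodes the activator BMAL1 that REV-ERB proteins repress. In controls it ran from 4.53 to 24.9 CPM at 12 h (median 18.6), from 9.55 to 20.4 at 24 h (15.4) and from 9.59 to 22.8 at 48 h (15.7). With furosemide it ran from 14.7 to 44.8 CPM at 12 h (median 26.6), from 13 to 33.1 at 24 h (19.9) and from 21 to 41.3 at 48 h (27.3). At 96 h the controls themselves ran from 28.1 to 55 CPM (38.4) and the furosemide libraries from 20.7 to 61.3 (30.6). Furosemide libraries were thus the higher ones in the first 3 times and not at 96 h, and only the males at 12 h did not overlap (25.1 to 44.8 against 14.9 to 24.9 CPM). Over the 4 times Arntl differed by 0.41 (SE 0.116, edgeR adjusted p = 0.0812), with 24 of 32 above their control median, and without female control 24 h replicate 3 the adjusted p was 0.0182 (0.00634 to 0.139 over all alternatives). It was called in 3 of the 71 alternatives, of which that fit was the 1 that left out a single library. Over 12, 24 and 48 h, a contrast added after the data were seen, Arntl rose by 0.60 (SE 0.135, adjusted p = 0.0246, above the control median in 21 of 24) and Nr1d2 fell by 1.03 (SE 0.201, adjusted p = 0.00675, below in 22 of 24). These were 2 of 10 members against 0.373% of all genes. In that contrast the call of Arntl was lost without male furosemide 24 h replicate 4 (adjusted p = 0.0504, the highest of 55 alternatives, lowest 0.00189), and Nr1d2 was called in all 55. Without the 3 libraries of low correlation 6 members passed, beside 6.84% of all genes. The effect on Arntl at 96 h was lower than that of 12 to 48 h by −0.75 (SE 0.268, unadjusted p 0.00668, adjusted p = 0.889 by edgeR), which does not pass. No member did in that contrast, which was also added after the data were seen (0.0169% of all genes), with 1 of 10 at an unadjusted p under 0.05 (4.08% of all genes).

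Clock (ENSMUSG00000029238), the DNA-binding partner of ARNTL, averaged 26.7 ± 8.11 CPM in controls and 29.9 ± 9.28 with furosemide (SD, n = 32), a difference of 0.16 (SE 0.103, adjusted p = 0.681). Npas2 (ENSMUSG00000026077), the alternative partner, averaged 5.31 ± 3.55 and 5.49 ± 3.87 CPM, a difference of 0.03 (SE 0.201, adjusted p = 1). Neither partner of ARNTL passed, and for Npas2 the sign turned under 5 other settings and in some of the fits that left out 1 library (−0.06 to 0.13).

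Cry1 (ENSMUSG00000020038, chromosome 10, 85131700 to 85185064, minus strand), a cryptochrome and strong repressor of CLOCK and ARNTL, had control medians of 5.96, 3.11, 3.8 and 11.9 CPM at 12, 24, 48 and 96 h and furosemide medians of 10.5, 8.51, 8.77 and 15.5 CPM. Its controls ran from 1.31 to 20 CPM at 12 h, from 0.31 to 5.68 at 24 h, from 1.61 to 53.6 at 48 h and from 9.52 to 19.3 at 96 h. With furosemide it ran from 4.5 to 30.3, from 1.98 to 25.4, from 2.11 to 18.1 and from 8.34 to 39.7 CPM. The median was higher with furosemide at all 4 times, 27 of 32 libraries lay above their control median, and the groups of 8 overlapped at every time. Males at 24 h (6.89 to 25.4 against 1.65 to 5.68 CPM) and females at 12 h (8.56 to 16.8 against 4.16 to 8.36) did not overlap. The difference of 0.81 (SE 0.245) had an edgeR adjusted p of 0.121. Without female control 48 h replicate 4, whose 53.6 CPM stood against 1.97 to 4.54 in its group, the difference was 1.11 with an adjusted p of 0.0019, the lowest among the fits that left out 1 library (highest 0.198). It also passed without male control 12 h replicate 3 (adjusted p = 0.0479) and without female control 24 h replicate 3 (adjusted p = 0.0437). Among the other settings it passed with the Lars2 covariate (0.87, adjusted p = 0.0412), with voom (1.03, adjusted p = 0.024) and without the 3 libraries of low correlation (0.98, adjusted p = 0.00065). Cry1 shares no position with another annotated gene.

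Cry2 (ENSMUSG00000068742), the second cryptochrome, averaged 9.87 ± 3.39 CPM in controls and 8.82 ± 3 with furosemide, a difference of −0.15 (SE 0.116, adjusted p = 0.767). Cry2 means by sex lay on opposite sides: the difference was 0.15 (SE 0.164) in males and −0.46 (SE 0.165) in females. These contrasts by sex were added after the data were seen. The difference between the sexes, −0.61 (SE 0.232, unadjusted p 0.0112, edgeR adjusted p = 0.797), did not pass. Females at 12 h did not overlap, with 7.46 ± 1.45 CPM on furosemide against 10.7 ± 1.75 (n = 4).

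Per2 (ENSMUSG00000055866), a period gene whose loss disturbs the rhythm, had control medians of 5.35, 4.48, 4.5 and 10.7 CPM at the 4 times and furosemide medians of 12.8, 8.41, 10.1 and 9.1 CPM. Of the furosemide libraries, 21 of 24 at 12 to 48 h and 2 of 8 at 96 h exceeded their own control median for Per2. The difference over all times, 0.42 (SE 0.203), had an adjusted p of 0.489. Without female control 48 h replicate 4 (86.1 CPM against 4.21 to 7.91 in its group) it was 0.69, with an adjusted p of 0.0213 (0.643 at the highest among those fits), and without the 3 libraries of low correlation 0.67, with an adjusted p of 0.00842. Per3 (ENSMUSG00000028957), a period gene that is dispensable for the rhythm itself, leaned the other way, at 12.6 ± 2.94 CPM in controls and 10.6 ± 3 with furosemide (−0.26, SE 0.101, adjusted p = 0.298). In females at 48 h all 4 furosemide libraries (9.8, 7.35, 5.57 and 6.88 CPM) lay below all 4 controls (11.7, 12.5, 11.8 and 10.4), and in females at 96 h they lay above (11.8, 13.1, 11.9 and 11.7 against 10, 11.6, 11.5 and 10). Per1 (ENSMUSG00000020893), a fast responder to glucocorticoids and cyclic AMP, averaged 12.5 ± 4.87 and 12.9 ± 6.81 CPM, a difference of −0.02 (SE 0.138, adjusted p = 1). Of 2 glucocorticoid-induced genes set beside it, Fkbp5 and Tsc22d3, the difference at 96 h was −1.80 (SE 0.326, adjusted p = 0.00327) and −1.64 (SE 0.325, adjusted p = 0.0104), where Per1 differed by −0.29 (SE 0.274, adjusted p = 1). Both genes were also higher in 96 h controls than in earlier ones, by 1.74 (SE 0.239) and 1.59 (SE 0.241).

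**Figure D3:**
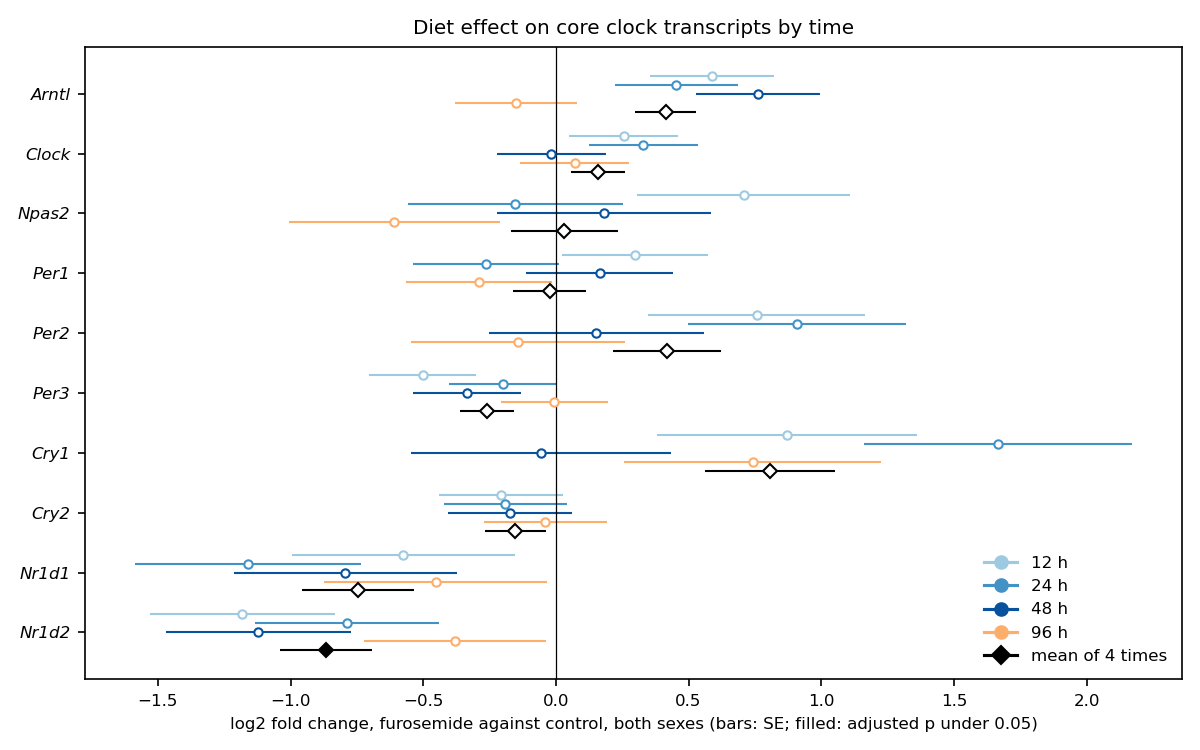
Log2 fold change of each clock transcript, furosemide against control in both sexes, at 12, 24, 48 and 96 h (circles) and as the mean of 4 times (diamonds), with bars for 1 SE. The filled diamond of Nr1d2, at −0.87, is the 1 value with an adjusted p under 0.05.

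At single times no member passed in both sexes together by edgeR, DESeq2 or voom. At an unadjusted p under 0.05 there were 3 of 10 at 12 h (8.83% of all genes), 4 at 24 h (7.23%), 2 at 48 h (9.46%) and 0 at 96 h (3.47%). The adjusted calls over all genes were 0%, 0.00964%, 0.00241% and 0.0819%. Nr1d2 showed −1.18 (SE 0.35) at 12 h, −0.79 (SE 0.348) at 24 h, −1.12 (SE 0.349) at 48 h and −0.38 (SE 0.344) at 96 h. The largest single value was that of Cry1 at 24 h, 1.67 (SE 0.506, unadjusted p 0.00166, adjusted p = 0.465). Whether the effect differed between times was tested for each member, and none passed (lowest unadjusted p 0.041, for Arntl, adjusted p = 0.666). It was the 1 of 10 at an unadjusted p under 0.05 (7.31% of all genes), and 0.012% of all genes passed after adjustment. At 48 h Arntl (0.83, adjusted p = 0.0423) and Per2 (1.27, adjusted p = 0.0389) passed without the 3 libraries of low correlation, where 2.15% of all genes did. Over the alternatives at 48 h their adjusted p reached 0.481 and 1.

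Within males or females no member passed at any time or over the 4 times by edgeR, DESeq2 giving none at single times either. The share of all genes passing at 12, 24, 48 and 96 h was 0.00241%, 0%, 0% and 0.012% in males and 0%, 0.272%, 0% and 0.00723% in females. The contrasts within 1 sex over the 4 times, and their sex difference, were added after the data were seen. Over the 4 times 4 of 10 members had an unadjusted p under 0.05 in males (10.2% of all genes) and 5 in females (6.45%). After adjustment 0.00723% and 0.0675% of all genes passed by edgeR. DESeq2 called Nr1d1 and Nr1d2 lower in females over the 4 times, where its own share over all genes is not given here. For Nr1d2 the 4-time difference was −0.80 (SE 0.246) in males and −0.93 (SE 0.246) in females, and their difference was −0.13 (SE 0.345, edgeR adjusted p = 1). For Arntl it was 0.47 (SE 0.164) and 0.36 (SE 0.164). For Per2 it was 0.83 (SE 0.29) in males and 0.01 (SE 0.284) in females. The female value takes in −0.76 at 48 h, where the control group holds the library at 86.1 CPM, beside 0.39, 0.40 and 0.01 at 12, 24 and 96 h. The sex difference of −0.82 (SE 0.407) had an adjusted p of 0.858. No sex difference of the diet effect passed at any time by edgeR, DESeq2 or voom, and 0 genes of 41507 did by edgeR, with 2 of 10 members at an unadjusted p under 0.05 for the mean of 4 times (5.81% of all genes). Of the 80 combinations of member, sex and time, 8 had 4 against 4 libraries without overlap (5 higher and 3 lower with furosemide), beside 3.08% of all such combinations over the genes tested. Between female and male controls none of the 10 passed (1.24% of all genes did, and 4 of 10 members had an unadjusted p under 0.05, against 11.8%). Per2 had the smallest p, at 12.3 ± 19.9 CPM in females and 6.16 ± 4.11 in males (0.89, SE 0.29, adjusted p = 0.142, n = 16 each). That difference was 0.34 (adjusted p = 0.721) without female control 48 h replicate 4, the library at 86.1 CPM, and 1.07 (adjusted p = 0.0451) without male control 12 h replicate 4.

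The control libraries of 96 h held more Arntl, Npas2 and Cry1 than the earlier ones. Arntl was 40 ± 10.2 CPM there against 16.5 ± 4.95 in the 24 controls of 12 to 48 h, and the ranges did not meet (28.1 to 55 against 4.53 to 24.9). Male controls measured 32.1, 28.1, 45.9 and 44 CPM at 96 h and female controls 32.8, 55, 31 and 51.1. The log2 difference was 1.29 (SE 0.178, edgeR adjusted p = 2.76e-07). Npas2 rose by 0.98 (SE 0.309, adjusted p = 0.0256), from 4.37 ± 3.19 to 8.13 ± 3.21 CPM, and Cry1 by 1.14 (SE 0.375, adjusted p = 0.0339), from 6.85 ± 10.7 to 12.8 ± 2.99. These were 3 of 10 members against 12.3% of all genes. Clock lay the other way from the activators Arntl and Npas2, at 21.7 ± 4.14 against 28.3 ± 8.48 CPM (−0.37, SE 0.171, adjusted p = 0.161). It passed with DESeq2 (−0.51, adjusted p = 0.00611) and RLE scaling (−0.51, adjusted p = 0.0205). Nr1d1 was at 10.8 ± 3.47 against 21.7 ± 17.5 CPM (−0.88, SE 0.36, adjusted p = 0.103), and Thra, which overlaps it, fell by 1.58 (SE 0.176, adjusted p = 1.43e-09). Tested over all 4 times in controls, Arntl (adjusted p = 5.32e-06) and Cry1 (adjusted p = 0.0303) differed, with 8.41% of all genes called.

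All control mice ate the same diet and were dissected in the same morning hours, and the 96 h libraries differ from the earlier ones in depth and Lars2, so time and library batch cannot be told apart. With Lars2 as a covariate the 96 h difference of Arntl was 0.54 (SE 0.282, adjusted p = 0.576, over alternatives from 1.65e-08 to 0.576) and no member passed, while without the 3 libraries of low correlation 5 did, beside 22.3% of all genes. Npas2 lost its call without female control 96 h replicate 1 or 2 or male control 96 h replicate 1 (adjusted p = 0.0601, 0.0836 and 0.0987) and with RLE scaling (0.0597). Cry1 lost its call without female control 96 h replicate 2 (0.105), without male control 96 h replicates 2, 3 or 4 (0.0619, 0.0549 and 0.0657), with DESeq2 (0.0629) and with RLE scaling (0.0636). The summed immune markers had a median of 409 CPM in 96 h controls against 150 earlier and the endothelial ones 797 against 437, and their part in these differences was not tested. Among furosemide libraries the same contrast gave 0.53 for Arntl (SE 0.184, adjusted p = 0.0686), and no member passed by edgeR, with 6.29% of all genes called and 4 of 10 members, Arntl, Clock, Cry1 and Cry2, at an unadjusted p under 0.05 (18.6% of all genes). This contrast of furosemide libraries was added after the data were seen.

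Of 26 other clock genes, all tested, 3 rose over the 4 times of furosemide and none fell, beside 0.588% of all genes, and 7 had an unadjusted p under 0.05 (9.72% of all genes). Their median difference was 0.05. Values are given for Bhlhe40 and Rorb. Bhlhe40, a repressor that competes for E-boxes, averaged 35.7 ± 15.3 CPM in controls and 66 ± 40 with furosemide (0.82, SE 0.14, adjusted p = 0.000608). Rorb, an activator at the elements that REV-ERB proteins occupy, rose by 0.78 (SE 0.187, adjusted p = 0.0282), from 109 ± 67.9 to 161 ± 79.2 CPM. Among 4 genes acting at D-boxes, the PAR bZIP activators Dbp, Tef and Hlf and the repressor Nfil3, none passed: Hlf differed by 0.68 (SE 0.188, adjusted p = 0.0728), Tef by −0.46 (SE 0.161, adjusted p = 0.213) and Dbp by −0.72 (SE 0.275, adjusted p = 0.288). Among 9 regulators of PER and CRY stability and 5 clock outputs none passed either, with Fbxw11 (0.25, SE 0.124, adjusted p = 0.496) and Por (0.21, SE 0.124, adjusted p = 0.632) having the smallest p of each. In the 96 h controls against earlier ones 10 of the 26 passed, 8 higher and 2 lower, beside 12.3% of all genes. Nfil3 rose by 2.45 (SE 0.285), from 6.86 ± 4.33 to 36.4 ± 10.7 CPM. In the same libraries Rorb fell by 2.45 (SE 0.356), from 137 ± 52.7 to 23.9 ± 17.7, and Bhlhe41, a relative of Bhlhe40, by 1.77 (SE 0.298).

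Over the 64 libraries with group means removed, 2 of the 45 pairs passed by Pearson's r (permutation test within groups, two-sided, 100000 resamples, adjusted over the 45 pairs). Per2 and Cry2 correlated positively (r = 0.536, adjusted p = 0.0198, Spearman's rho = 0.487, adjusted p = 0.027), with r = 0.441 without the 2 libraries farthest from the median of Per2. Within the 96 h libraries r was 0.403 (n = 16) and within the others 0.55 (n = 48), where it passed, unlike within 96 h, and without the 3 libraries of low correlation the pair did not pass (r = 0.486). Arntl and Per3 correlated negatively (r = −0.444, adjusted p = 0.0313, rho = −0.375, adjusted p = 0.0829), with r = −0.394 without the 2 farthest, −0.339 within 96 h and −0.474 within 12 to 48 h, and the pair passed in neither of these subsets. Arntl with Cry1 passed by rho alone (rho = 0.427, adjusted p = 0.0286, r = 0.326, adjusted p = 0.114). No pair of Arntl with a REV-ERB gene passed (r = −0.019 with Nr1d1, adjusted p = 0.973, and 0.042 with Nr1d2, adjusted p = 0.881), and Nr1d1 with Nr1d2 gave 0.355 (adjusted p = 0.114). Within 96 h Arntl gave −0.507 with Nr1d1 and 0.524 with Nr1d2 (n = 16). Within 12 to 48 h the values were 0.08 and −0.08 (n = 48), and neither pair passed in either subset.

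**Figure D4:**
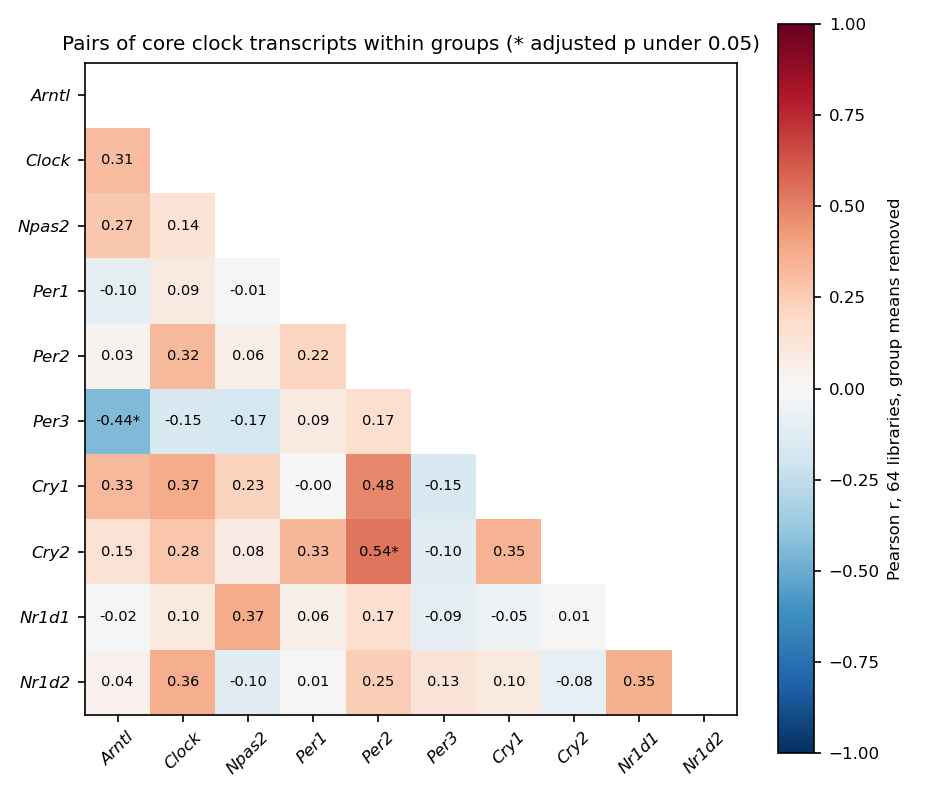
Pearson r of each of the 45 pairs of clock transcripts over 64 libraries after the mean of each group was removed, from −1 (blue) to 1 (red). Stars mark the 2 pairs with an adjusted p under 0.05, Arntl with Per3 at −0.44 and Per2 with Cry2 at 0.54.

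The genes most like each member over the same 64 libraries were described by Pearson's r with group means removed. They were sought among 9549 or 9550 genes with a mean of at least 3 log2 CPM, and held no other member or listed clock gene. Cry1, Npas2 and Per2 lay below that level, so they could not appear as partners. Per2 gave 0.536 with Cry2, where Sco2, among the genes listed as most like Cry2, gave 0.529. For Nr1d2 the most alike were Toe1 (0.7), Sgk2 (0.694) and Fkbp9 (0.683), and the least alike was Cbs (−0.571). For Nr1d1 they were Tns2 (0.694), Grb7 (0.688) and Rnf123 (0.677), with Nudcd1 at the other end (−0.604). For Arntl they were Ccng2 (0.67), Met (0.655) and Dlg3 (0.643), against Hspb11 (−0.631). For Cry1 they were Lrrc58 (0.766), Cd2ap (0.713) and Slain2 (0.707), against Nme7 (−0.511). For Per2 they were Fem1b (0.703), Tln1 (0.686) and Tln2 (0.672), against Eci2 (−0.537). No library was left out for any of these lists. The 3 libraries of low correlation hold the highest values of Nr1d1, and female control 48 h replicate 4 those of Cry1 and Per2. Their part in the lists was not tested, though r of Per2 with Cry1 went from 0.483 to 0.276 without the 3 libraries. Clock was most like Mgrn1 (0.655), Nadsyn1 (0.654) and Sun1 (0.646), and Npas2 most like Ap1ar (0.585), Arl8a (0.583) and Prkd1 (0.568). Per1, Per3 and Cry2 had no partner above 0.552, led by Dvl1 (0.436), Ercc6 (0.464) and Nolc1 (0.552), and Per1 gave 0.078 with Fkbp5 and 0.238 with Tsc22d3.

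**Figure D5:**
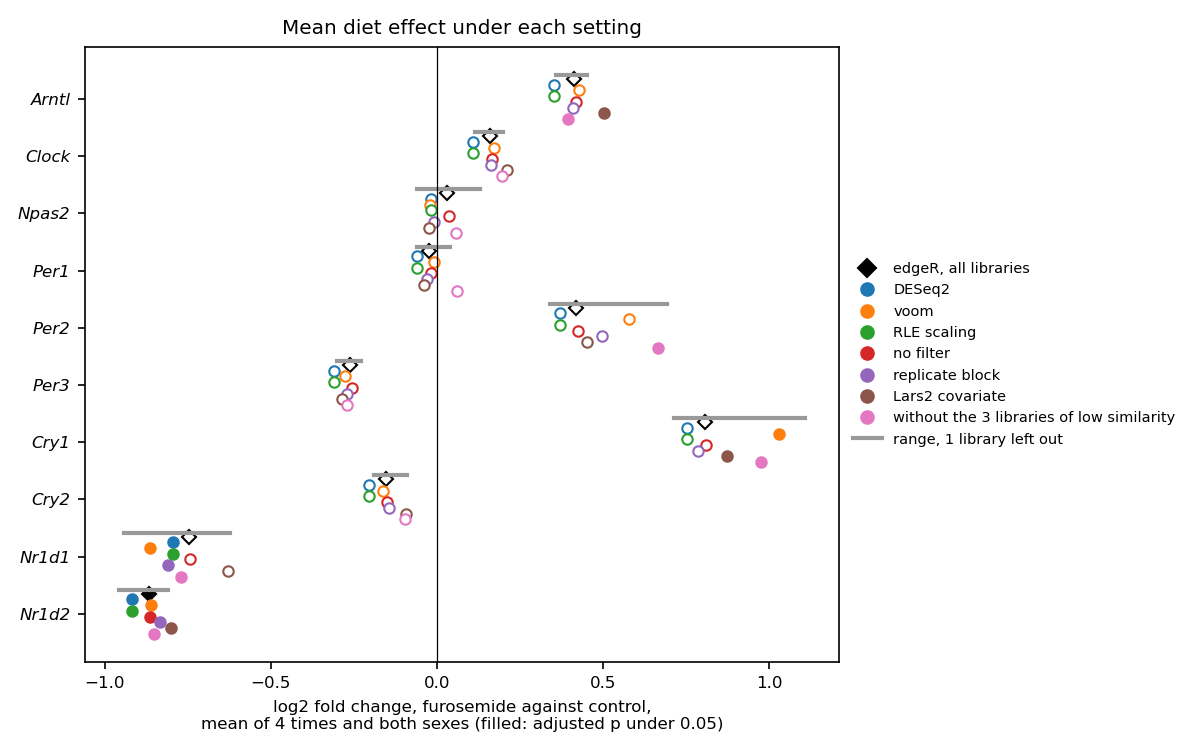
Log2 fold change of each clock transcript, furosemide against control over 4 times and both sexes, under each setting of the analysis, with filled symbols for an adjusted p under 0.05 and grey lines for the range when 1 library was left out. Nr1d2 is filled under every setting shown, from −0.92 to −0.80, and Npas2 and Per1 lie on both sides of 0.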

How the data were processed

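RNA of microdissected tubules was copied with SMART-Seq HT and made into libraries with Nextera XT, per the labels' protocols, without strand or molecular identifiers. The authors deposited estimated counts for each gene, and Salmon 0.14.10 and GRCm38.p6 are named in the submitters' processing notes. They were rounded to whole numbers. Genes passing edgeR's filter (minimum count 10) numbered 41507. TMM scaling and edgeR 4.0.16's quasi-likelihood test (R 4.3.3) were fitted over 16 group means, with Benjamini-Hochberg adjustment over all genes and a threshold of 0.05. The script was tested on simulated data. Alternatives were DESeq2 1.42.0, voom (limma 3.58.1), RLE scaling, no filter, a replicate block, a Lars2 covariate, libraries of that time only, and leaving out libraries. Gene positions come from GENCODE M21. Named genes were the members, the 3 with the smallest p of each list in each main comparison, and the genes most and least alike each member; 1 gene that the rule names is not reported here. The members and lists were chosen with earlier results of these data known. No replicate pair agreed within sampling noise (lowest chi-square per degree of freedom 13.2 over 96 pairs).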

Additional observations from a re-analysis of the deposited data

Results flagged for a closer look

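In 14 of the 160 groups of 4 libraries formed by member, sex, diet and time, 1 library stood farther from the other 3 than Dixon's test allows, a test by which chance flags about 1 in 20 groups. Per2 was 86.1 CPM (others 4.21 to 7.91) and Cry1 53.6 (others 1.97 to 4.54) in female control 48 h replicate 4. Female control 12 h replicate 3 held 15.4 CPM of Per2 (others 4.95 to 6.13) and 34.9 of Nr1d1 (others 14.7 to 15.6), and Nr1d1 was 72.2 in male furosemide 12 h replicate 4 (others 4.48 to 13.3). Female furosemide 24 h replicate 3 held 55.8 CPM of Clock (others 24.6 to 28.6) and 28.5 of Nr1d2 (others 6.22 to 9.68). Female control 96 h replicate 2 held 19.3 CPM of Cry1 (others 10.9 to 11.8) and 13.5 of Cry2 (others 10.5 to 10.8). Arntl was 20.4 CPM in male control 24 h replicate 1 (others 15.4 to 15.6), Npas2 16.2 in female furosemide 48 h replicate 4 (others 4.23 to 6.09) and Cry2 13.3 in female control 12 h replicate 4 (others 9.75 to 9.95). Per3 was 13.1 CPM in female furosemide 96 h replicate 2 (others 11.7 to 11.9), and Per2 in male furosemide 96 h replicate 1 was the low one at 5.8 (others 9.04 to 9.54). The causes were not tested.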

How the results depend on the processing

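Nr1d2 was lower over the 4 times in all 71 alternatives, and called in each. The count of members called there, 1, became 2 with DESeq2, RLE scaling or the replicate block, 3 with voom or the Lars2 covariate, and 5 without the 3 libraries of low correlation (1 to 3 when 1 library was left out). Without those 3 libraries the count was 2 at 48 h (0 with all), 6 over 12 to 48 h (2 with all, 1 to 4 leaving out 1), 5 for time within controls (2 with all, 1 to 4), 5 for 96 h against earlier controls (3 with all, 1 to 4), 4 for 96 h against earlier furosemide libraries (0 with all) and 1 in females over the 4 times (0 with all). The share of all genes called also rose without those 3 libraries. It went from 0.588% to 5.81% over the 4 times and from 0.373% to 6.84% over 12 to 48 h. At 48 h it went from 0.00241% to 2.15%, and for 96 h against earlier controls from 12.3% to 22.3%. Shares over all genes under the other settings are not given here, so those counts stand without a background. The Lars2 covariate left 0 called in both control contrasts. DESeq2 called 5 in the 96 h controls and 2 in females over the 4 times. In the 96 h furosemide contrast DESeq2, RLE scaling and the Lars2 covariate called 1 and voom 3. Female against male controls gave 0 to 1 leaving out 1 library. Of the pair correlations 0 passed within 96 h, 1 within 12 to 48 h and 1 without the 3 libraries. RLE scaling moved the 96 h control differences by a median of −0.14 over the members. The cause was not tested in any of these.

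Signs turned for the values below, and some of them moved far. At 48 h Per2 became 1.25 and Cry1 1.16 without female control 48 h replicate 4. At 48 h Cry1 was −0.06 and became 0.089 with the replicate block, 0.017 with Lars2, 1.17 without the 3 libraries and 0.73 with voom, and Clock was −0.02 and became 0.011 with Lars2, 0.001 with no filter, 0.085 without the 3 libraries and 0.055 with voom. With Lars2, Arntl at 96 h became 0.11, Cry2 at 96 h 0.13 and Cry2 in 96 h controls −0.068. Npas2 over the 4 times became −0.018 with DESeq2 or RLE scaling, −0.023 with Lars2, −0.022 with voom and −0.01 with the block. Without the 3 libraries Per1 over the 4 times became 0.061, and in females against males Npas2 became −0.14 and Cry1 −0.23. Leaving out 1 library, Npas2 ran from −0.42 to 0.19 at 24 h, −0.13 to 0.57 at 48 h and −0.06 to 0.13 over the 4 times. Cry2 ran from −0.34 to 0.006 at 24 h and −0.11 to 0.032 at 96 h, Clock from −0.11 to 0.15 at 48 h and −0.10 to 0.15 at 96 h, and Per3 from −0.06 to 0.054 at 96 h. Per2 ran from −0.15 to 1.25 and Cry1 from −0.25 to 1.16 at 48 h, Per1 from −0.06 to 0.041 over the 4 times, and in females against males Npas2 from −0.12 to 0.25 and Cry1 from −0.33 to 0.55.

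The replicate numbers do not pair the libraries: of 32 correlations between same-numbered libraries of the 2 diets 1 was over 0.1 (−0.296 to 0.246), and 5 of 32 control libraries correlated best with their own number. With the replicate block 2 members were called over the 4 times, Nr1d1 (−0.81, adjusted p = 0.0486) and Nr1d2 (adjusted p = 0.00772). Leaving out 1 library was not run for contrasts within 1 sex, sex differences, differences between times, the 96 h furosemide contrast or pair correlations, and those fits kept the dispersion trend of all libraries. Cry1 and Npas2 had the fewest counts in any 1 library, 5 and 10. Their median counts over the 64 libraries were 158.5 and 85.5, beside 170.5 for Per2.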
